A study of Mus musculus with 12 samples.

Results

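Glucose enters heart muscle cells through transporters, is broken down to pyruvate by the enzymes of glycolysis, and is stored as or released from glycogen. The 32 genes described here were picked by their known roles, from glucose and lactate transport through glycolysis and the PFKFB enzymes to glycogen turnover; the rule uses no measured value, though earlier results of these data were known. All 32 were found among the 54751 features of the deposited table, and all 32 had a mean of at least 10 normalised counts over the 6 libraries, the condition for being tested. A single row carried the symbol for 31 of them, and of the 2 rows for Aldoa the row with the higher mean was used. Such genes are expressed in heart, and the muscle forms Slc2a4, Pfkm, Pgam2, Eno3 and Pygm each held at least 4107 counts in every library.

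The adult heart draws most of its energy from fatty acids and uses glucose and lactate beside them, and a shift between these fuels is commonly described in hearts with impaired mitochondria. Glycolysis runs in the cytosol and yields pyruvate, which lactate dehydrogenase interconverts with lactate or which the pyruvate dehydrogenase complex feeds into mitochondria. Glycogen is built by glycogenin, glycogen synthase and branching enzyme, and is degraded by glycogen phosphorylase, which phosphorylase kinase switches on.

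Total RNA of whole hearts from 52-week-old C57BL/6N mice was sequenced after depletion of cytoplasmic ribosomal RNA, with 3 libraries per group. Control hearts had loxP sites around Rexo2 on each allele (Rexo2loxP/loxP). Knockout hearts carried the same floxed alleles and +/Ckmm, an allele named after Ckm, the creatine kinase of muscle, and its promoter is widely used to express Cre in striated muscle, so that other cells of the heart would keep Rexo2. Rexo2 encodes an oligoribonuclease that degrades very short RNAs, and the series title names its role in promoter choice in mitochondria. No group held Ckmm without the floxed alleles, so the allele itself and a loss of Rexo2 cannot be told apart. Libraries are called by group and the number in the column names. The labels do not tie a library to its own animal, so p-values reflect only how far these samples scatter, and part of that scatter may be technical.

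Depth ranged from 41979163 to 50764023 reads per library, and features of mitochondrial DNA took 69.4% to 70.0% of them in control and 71.5% to 71.9% in the knockouts. Rexo2 was counted between 293 and 368 in control and between 274 and 314 in the knockouts, at a log2 fold change of -0.17, and since no source used here gives the deleted part of the gene, this count does not check the labels. Control 490 stood apart on the first principal component of all tested features (26.4% of the variance), at 30.1 against -16.7 to 5.63 for the other libraries. Counting noise alone would give a chi-square per degree of freedom near 1, and pairs within a group reached 3.34 to 13.7, so no library was a second deposit of another; whether they came from separate animals this does not show. Cardiomyocyte markers summed to between 539929 and 580211 counts in the controls and between 530249 and 560869 in the knockouts, whereas 9 skeletal muscle markers summed to only 16.0 to 31.2 in any library, with Myh4 at 0. Of 6 adipocyte markers, Adipoq, Plin1, Cidec, Lep and Retn stayed under 10 counts in every library. The remaining marker, Fabp4, ranged from 2277 to 2921 counts, at a log2 fold change of 0.07. Endothelial, fibroblast, smooth muscle, erythroid and macrophage lists had median log2 fold changes from -0.038 to 0.046, with 0 genes called. The macrophage marker Adgre1 was higher in the knockouts without overlap (log2 fold change 0.35, limma unadjusted p = 0.0230). Pdgfra of the fibroblast list (-0.08) and Mb of the cardiomyocyte list (-0.10) were lower without overlap, where 9.51% of all features had none. Neuronal and Schwann cell markers had a median of -0.25 and are given with Phkg1. In such bulk samples, fewer cells of a type and less RNA per cell cannot be told apart.

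Across glycolysis and glycogen metabolism, knockout hearts held nearly the same transcript levels as control hearts. None of the 32 genes was called by limma at an adjusted p under 0.05, where 0.0219% of the 18250 features tested were called. At an unadjusted p under 0.05 limma had 2 of the 32, Pkm and Phkg1, both lower in knockout hearts, which is 6.25% of the genes beside 3.70% of all features (1.98% lower and 1.72% higher). edgeR on reads recovered from the values called 0 of the 32 (0.0274% of all features) and had 1, Phkg1, at an unadjusted p under 0.05 (3.78%). DESeq2 on those reads called 0 of the 28 with an adjusted p (0.456% of 7233 features). It had 1, Pkm, at an unadjusted p under 0.05 (1.00% of 32228 features). The authors' deposited table called 0 of 29 (0.437% of 7550 features) and had 1, Pkm, at an unadjusted p under 0.05 (0.999% of 32228). Those 32228 features include many averaging under 10 counts, so their shares are not like those of limma and edgeR. Phkg1 was the only gene of the 32 whose groups did not overlap, or 3.12% beside 9.51% of all features (4.90% lower and 4.61% higher). The log2 fold changes, all on the scale log2(normalised count + 1) as knockout minus control, ran from -0.23 for Phkg1 to 0.28 for Slc16a3. They had a median of 0.024, with 21 genes above 0 and 11 below, where all features had a median of 0.00056 and 50.2% above 0. Scaling all libraries to equal totals moved that median to -0.046, and equal totals without mitochondrial features to 0.051, so no direction can be given for the genes as a group.

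Under the deposited scaling, the data bounded these differences closely. The 95% interval of the fold change lay within 1.2-fold in either direction for 25 of the 32 genes and within 1.5-fold for 31, the exception being Slc16a3. The absolute log2 fold change was below 0.1 in 25 genes and below 0.05 in 20. The median standard error was 0.059 for these genes, which are well expressed, and 0.12 over all features. The intervals do not cover the choice of scaling, which moved the median log2 fold change of 0.024 to -0.046 or 0.051. A difference smaller than these intervals would not have been detectable.

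**Figure D1:**
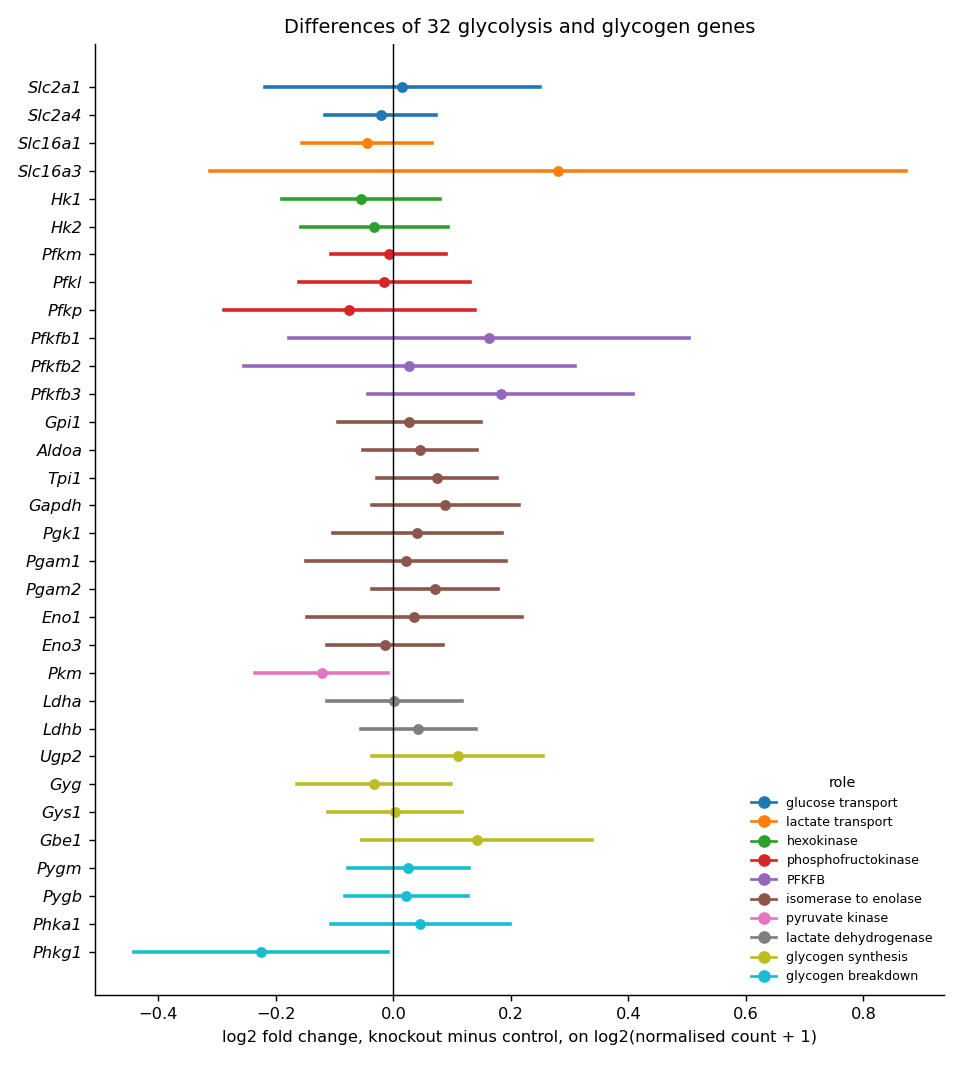
Log2 fold change of each of the 32 genes (points) with its 95% interval from limma (lines), as knockout minus control on log2(normalised count + 1), with 3 libraries per group, coloured by role. The intervals of Pkm and Phkg1 lay below 0 before adjustment, and the widest interval was that of Slc16a3.

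Neither glucose transporter passed the test. Slc2a4, the insulin-responsive transporter GLUT4, held 5593, 5571 and 5523 normalised counts in the controls (490, 498, 502) and 5666, 5375 and 5403 in the knockouts (492, 499, 501). The groups overlapped, and the log2 fold change was -0.02 with a 95% interval from -0.12 to 0.07. Slc2a1, the basal transporter GLUT1, held 207, 211 and 222 counts in the controls and 189, 240 and 220 in the knockouts. Its highest and lowest libraries were both knockout hearts, and its log2 fold change was 0.02 with an interval from -0.22 to 0.25.

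Lactate crosses the cell membrane through monocarboxylate transporters. Slc16a1, which encodes MCT1, held 5024, 4958 and 5222 counts in the controls and 5152, 4993 and 4607 in the knockouts, at a log2 fold change of -0.04 and an interval from -0.15 to 0.07. Slc16a3, which encodes the exporter MCT4 of glycolytic tissues, was the least counted of the 32, at 23.2, 17.9 and 28.5 counts in the controls and 29.0, 33.1 and 22.6 in the knockouts. The groups overlapped, and its log2 fold change of 0.28 had an interval from -0.31 to 0.87 (limma unadjusted p = 0.327). Bsg, which encodes basigin, the partner protein of both transporters and no member of the 32, held 10997, 11030 and 10408 counts in the controls and 11276, 11114 and 12062 in the knockouts, without overlap but at a log2 fold change of only 0.09 (limma unadjusted p = 0.0884).

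Hexokinases trap glucose as its phosphate. Hk2, the form of insulin-sensitive tissues, held 5643, 6358 and 6523 counts in the controls and 6123, 6234 and 5733 in the knockouts. Control 490 was lowest, all knockout values lay between the control values, and the log2 fold change was -0.03 with an interval from -0.16 to 0.09. Hk1, the form found in most tissues, held 1164, 1265 and 1341 counts in the controls and 1188, 1231 and 1206 in the knockouts, again with the knockout values inside the control range and a log2 fold change of -0.05.

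Phosphofructokinase commits sugar to glycolysis. Its muscle subunit gene Pfkm held 6257, 6103 and 5870 counts in the controls and 6208, 5971 and 5946 in the knockouts, all knockout values lying inside the control range, and its log2 fold change was -0.01 with an interval from -0.11 to 0.09. The liver-type subunit gene Pfkl ranged from 783 to 901 counts at a log2 fold change of -0.02. The platelet-type subunit gene Pfkp ranged from 436 to 576 at a log2 fold change of -0.07, its lowest library being knockout 492.

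The PFKFB enzymes make and remove the sugar bisphosphate that activates phosphofructokinase, and among them Pfkfb1 and Pfkfb2 varied widely from library to library. Their upstream windows are shown because Pfkfb1 and Pfkfb2 had 2 of the 3 largest spreads among the 32 genes, with Phkg1 added as the gene without overlap. Each line holds the 250 bases before the most upstream of the starts in the RefSeq promoter table used here (GRCm38.p6), which does not hold every start. The RefSeq gene spans reach further upstream, to 130729253 for Pfkfb2, 11554071 for Pfkfb3 and 129879134 for Phkg1, so the Pfkfb2 window lies wholly and the Pfkfb3 and Phkg1 windows partly inside the annotated gene. Pfkfb1 is chrX:150587195-150587444 on the plus strand, Pfkfb2 is chr1:130716049-130716298 on the minus strand, Pfkfb3 is chr2:11553930-11554179 on the minus strand and Phkg1 is chr5:129879089-129879338 on the minus strand. Capitals mark ACGTG or GCGTG, the core letters of hypoxia response elements, and the E-box CACGTG, on either strand. Which start is used in these hearts was not measured.
Pfkfb1: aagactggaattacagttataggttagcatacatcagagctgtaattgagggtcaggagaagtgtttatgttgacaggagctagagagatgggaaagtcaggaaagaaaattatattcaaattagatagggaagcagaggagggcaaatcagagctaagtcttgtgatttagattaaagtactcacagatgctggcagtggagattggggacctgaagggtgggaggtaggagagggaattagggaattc
Pfkfb2: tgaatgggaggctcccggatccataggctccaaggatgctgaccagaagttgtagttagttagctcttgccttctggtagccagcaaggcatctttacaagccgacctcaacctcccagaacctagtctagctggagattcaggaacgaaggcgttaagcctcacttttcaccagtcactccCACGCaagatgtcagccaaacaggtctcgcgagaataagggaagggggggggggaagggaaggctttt
Pfkfb3: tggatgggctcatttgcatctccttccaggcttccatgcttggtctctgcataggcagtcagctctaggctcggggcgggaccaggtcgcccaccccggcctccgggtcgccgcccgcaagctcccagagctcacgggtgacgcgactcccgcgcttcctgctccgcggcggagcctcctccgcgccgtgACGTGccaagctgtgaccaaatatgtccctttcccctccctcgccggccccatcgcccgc
Phkg1: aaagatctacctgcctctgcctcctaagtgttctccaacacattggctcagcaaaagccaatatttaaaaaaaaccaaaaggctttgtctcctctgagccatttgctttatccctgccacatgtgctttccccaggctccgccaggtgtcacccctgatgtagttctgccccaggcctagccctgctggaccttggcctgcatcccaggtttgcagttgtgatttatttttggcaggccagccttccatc
The windows of Pfkfb2 and Pfkfb3 hold 1 such match each, and those of Pfkfb1 and Phkg1 hold 0. RefSeq windows were found for 31 of the 32 genes, 48 windows in all. ACGTG occurred on either strand in 39.6% of them and in 16.6% of all 32851 windows, and GCGTG in 50% and 28.2%. CACGTG, which contains ACGTG, occurred in 10.4% and 6.02%. It was in at least 1 listed window of Ldha, Pfkfb2, Pfkfb3, Pfkm and Slc16a1, but in none of the windows printed above. The windows of the 32 genes were also richer in G and C, with a median of 60% against 52.4%, so these shares describe letters and not bound sites.

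Pfkfb1 (ENSMUSG00000025271.13), the isoform known from liver and skeletal muscle, held 486, 341 and 300 counts in the controls (490, 498, 502) and 416, 341 and 492 in the knockouts (492, 499, 501). Pfkfb2 (ENSMUSG00000026409.14), the heart isoform, held 1160, 1491 and 1718 counts in the controls and 1357, 1794 and 1291 in the knockouts. The same 3 libraries, control 490 and knockout 492 and 501, were highest for Pfkfb1 and lowest for Pfkfb2, so the isoforms ran opposite to each other and across genotype. The ratio of Pfkfb2 to Pfkfb1 within a library, on the log2 scale, was 1.25, 2.12 and 2.51 in control and 1.70, 2.39 and 1.39 in the knockouts. Its group difference was -0.14 with overlap (exact permutation test, 2-sided, p = 0.9).

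This order followed Pdk4, the pyruvate dehydrogenase kinase induced by fasting and fatty acids, which is no member of the 32. Pdk4 held 5611, 1989 and 1338 counts in the controls and 3364, 2038 and 4623 in the knockouts, so the libraries high in Pdk4 were those high in Pfkfb1 and low in Pfkfb2. Pdk4 too is named here for its values, and how many of all features split the libraries this way was not counted. Ppp1r3c, which targets protein phosphatase to glycogen and was singled out after its values were seen, ran like Pfkfb2, at 2409, 2876 and 3199 counts in the controls and 2619, 3278 and 2645 in the knockouts. The intervals of the isoforms were wide. The log2 fold change was 0.16 for Pfkfb1 with an interval from -0.18 to 0.50, and 0.03 for Pfkfb2 with an interval from -0.25 to 0.31. A single library moved the former, which was 0.36 without control 490 (limma unadjusted p = 0.0127, adjusted p = 0.996) and 0.016 without control 502. Pfkfb2 changed sign, at -0.13 without control 490, -0.12 without knockout 499 and 0.16 without control 502. Control 490 is also the library that stood apart on the first principal component, and its part in these values is given only by those fits. That component of all tested features split the libraries alike, at 30.1, -9.05 and -15.4 in the controls (490, 498, 502). The knockouts (492, 499, 501) were at 5.36, -16.7 and 5.63, so the split was not particular to the genes named here.

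Pfkfb3, the inducible isoform, did not share that order. It held 234, 193 and 230 counts in the controls and 233, 260 and 250 in the knockouts, so control 498 was low and the groups overlapped by a narrow margin. Its log2 fold change of 0.18 had an interval from -0.04 to 0.41 and a limma unadjusted p of 0.104.

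**Figure D2:**
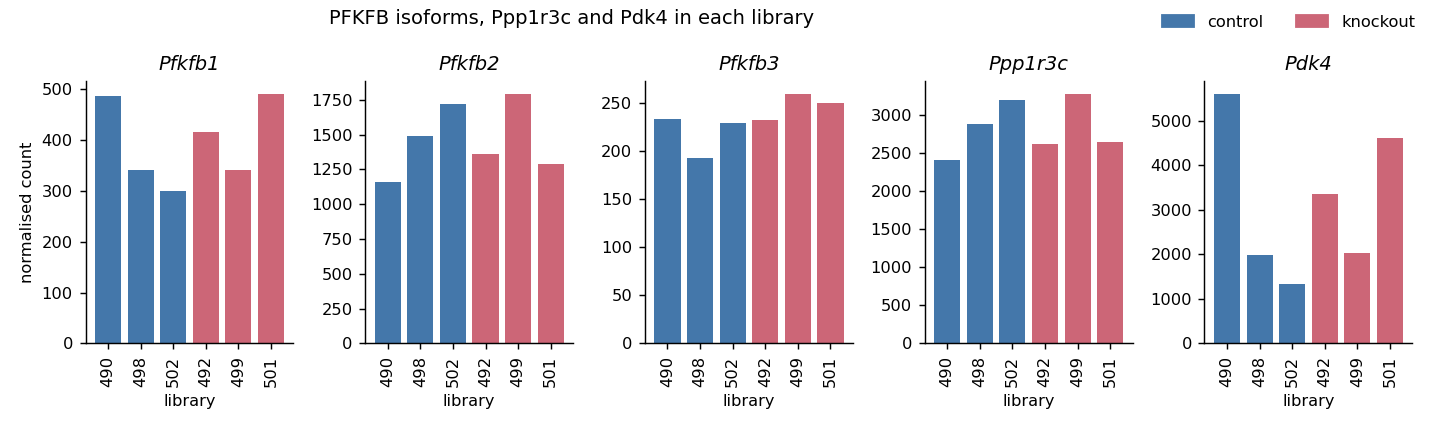
Normalised counts (vertical axes, from 0) of Pfkfb1, Pfkfb2, Pfkfb3, Ppp1r3c and Pdk4 in each library (bars), control in blue and knockout in red. Control 490 and knockout 492 and 501 are the 3 highest for Pfkfb1 and Pdk4 and the 3 lowest for Pfkfb2 and Ppp1r3c.

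From glucose phosphate isomerase to enolase, 8 of the 9 genes had a log2 fold change above 0, and 0 of the 9 were at an unadjusted p under 0.05 in limma. Aldoa, which encodes the muscle aldolase, held 16438, 16918 and 15723 counts in the controls and 16629, 16544 and 17467 in the knockouts, with overlap and a log2 fold change of 0.05 (interval from -0.05 to 0.14). Gapdh, the dehydrogenase step, held 2787, 2969 and 2906 counts in the controls and 2861, 3048 and 3314 in the knockouts. Knockout 501 was highest, and the log2 fold change of 0.09 had an interval from -0.04 to 0.21. It was 0.033 without knockout 501 and 0.14 without knockout 492 (limma unadjusted p = 0.0300, adjusted p = 0.961). Tpi1, triosephosphate isomerase, held 4532, 4427 and 4347 counts in the controls and 4762, 4448 and 4802 in the knockouts, and its log2 fold change was 0.07 (interval from -0.03 to 0.18).

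The phosphoglycerate mutase gene of muscle, Pgam2, held 4107, 4377 and 4364 counts in the controls and 4285, 4581 and 4629 in the knockouts, at a log2 fold change of 0.07 (interval from -0.04 to 0.18). The muscle enolase gene Eno3 ranged from 7135 to 7714 counts, at a log2 fold change of -0.01. Gpi1, the isomerase, ranged from 1927 to 2134 (0.03), and Pgk1, phosphoglycerate kinase, from 661 to 745 (0.04). The forms found in most tissues, Pgam1 (414 to 467 counts) and Eno1 (433 to 527), had log2 fold changes of 0.02 and 0.04. Groups overlapped in all 9 genes. Under equal totals of all features Gpi1, Aldoa, Pgk1, Pgam1 and Eno1 turned to below 0, so the shared sign depends on the scaling.

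Pyruvate kinase, the last step of glycolysis, was the lowest in p among the 32 genes. Pkm (ENSMUSG00000032294.17, chromosome 9, 59656576 to 59679372), whose splice forms the counts do not separate, held 8831, 8244 and 8003 counts in the controls and 7738, 7252 and 8062 in the knockouts. Knockout 501 lay above control 502, so the groups overlapped. The means were 8359 ± 426 and 7684 ± 408 (SD, n = 3), and the log2 fold change was -0.12 with a standard error of 0.053, an interval from -0.23 to -0.01, a limma unadjusted p of 0.0371 and an adjusted p of 1.00. Without control 490, its highest library, the log2 fold change was -0.081 (limma unadjusted p = 0.15), and without knockout 499, its lowest, -0.081 (0.186). Of the 6 fits that left out 1 library, those without control 502 and without knockout 501 alone had an unadjusted p under 0.05. Under equal totals of all features it was -0.19 (limma unadjusted p = 0.00193, adjusted p = 0.376). The authors' deposited table gave Pkm a log2 fold change of -0.12 with an adjusted p of 1.00.

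Neither lactate dehydrogenase gene passed the test. Ldhb, which encodes the heart subunit, held 6174, 6430 and 6272 counts in the controls and 6670, 6565 and 6214 in the knockouts, at a log2 fold change of 0.04 (interval from -0.06 to 0.14). Ldha, the muscle subunit, held 3697, 3387 and 3377 counts in the controls and 3662, 3369 and 3440 in the knockouts. In each group a single library, control 490 and knockout 492, lay above the rest, and the log2 fold change was 0.0016 with an interval from -0.11 to 0.12.

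With all libraries, no gene of glycogen synthesis had an unadjusted p under 0.05 in limma. Ugp2, which makes the activated glucose used as substrate, held 2197, 2651 and 2348 counts in the controls and 2662, 2661 and 2425 in the knockouts, at a log2 fold change of 0.11 (interval from -0.04 to 0.26). Gbe1, the branching enzyme, held 390, 479 and 462 counts in the controls and 493, 520 and 452 in the knockouts, at a log2 fold change of 0.14 (interval from -0.05 to 0.34). Control 490 was the lowest library for both genes, and without it Ugp2 was at 0.049 and Gbe1 at 0.052. Without control 498, the highest control library for both, Ugp2 was at 0.18 (limma unadjusted p = 0.0167, adjusted p = 1.00) and Gbe1 at 0.20. Gys1, the muscle glycogen synthase, held 1562, 1464 and 1509 counts in the controls and 1510, 1513 and 1517 in the knockouts, a log2 fold change of 0.0024 with an interval from -0.11 to 0.12. Gyg, which encodes the primer protein glycogenin, ranged from 1217 to 1377 counts at a log2 fold change of -0.03.

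In glycogen breakdown neither phosphorylase passed the test, and a kinase subunit was lower before adjustment. Pygb, the phosphorylase form first described in brain, held 10058, 9285 and 9069 counts in the controls and 9349, 9681 and 9793 in the knockouts, at a log2 fold change of 0.02 (interval from -0.08 to 0.13). Pygm, the muscle form, held 9674, 9404 and 8770 counts in the controls and 9249, 9366 and 9711 in the knockouts, at a log2 fold change of 0.03 (interval from -0.08 to 0.13). For both genes control libraries spanned most of the range.

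Phkg1 (ENSMUSG00000025537.12, chromosome 5, 129863431 to 129879134) encodes the muscle form of the catalytic gamma subunit of phosphorylase kinase. It held 273, 289 and 270 counts in the controls (490, 498, 502) and 265, 235 and 213 in the knockouts (492, 499, 501). Every knockout library lay below every control library, though knockout 492 came within a few counts of control 502. The means were 277 ± 10.0 and 238 ± 26.1 (SD, n = 3), and the log2 fold change was -0.23 with a standard error of 0.10, an interval from -0.44 to -0.01, a limma unadjusted p of 0.0416 and an adjusted p of 1.00. It was -0.15 without knockout 501 (limma unadjusted p = 0.173) and -0.31 without knockout 492 (0.0107). Of the 6 limma fits that left out 1 library, only that without knockout 492 had an unadjusted p under 0.05. With all libraries DESeq2 gave an unadjusted p of 0.104 and edgeR 0.0443. Beside it, 4 of the 6 neuronal and Schwann cell markers were tested and all 4 were below 0 (median log2 fold change -0.25), with a summed level of 184 to 219 counts in the controls and 160 to 200 in the knockouts and Th at 0 throughout. Their part in the Phkg1 value was not tested.

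The other subunits of phosphorylase kinase had smaller log2 fold changes. Phka1, the muscle alpha subunit, held 782, 686 and 719 counts in the controls and 795, 735 and 727 in the knockouts, at a log2 fold change of 0.05. Among the subunits outside the 32, Phkb (beta) was at -0.08 (limma unadjusted p = 0.296), Phka2 (alpha, liver type) at -0.0069 (0.944) and Phkg2 (gamma, liver type) at 0.02 (0.863). Whether Phkg1 differed from these subunits was not tested.

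**Figure D3:**
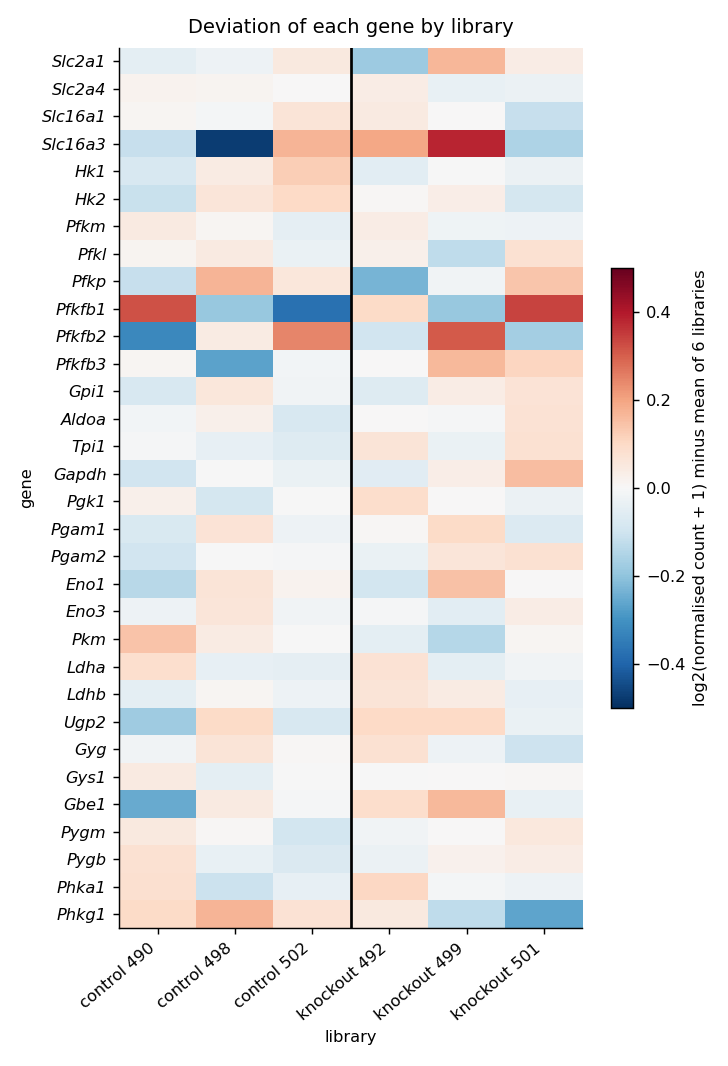
Log2(normalised count + 1) of each gene in each library minus the mean of the 6 libraries (colour, red above and blue below), with control libraries left and knockout libraries right of the line. The deepest colours stand in Slc16a3, the least counted gene, and in Pfkfb1 and Pfkfb2, which mirror each other across genotype.

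Spread among libraries differed strongly between these genes. The pooled within-group SD on the log2 scale was largest for Pfkfb1 (0.32), Slc16a3 (0.30) and Pfkfb2 (0.27) and smallest for Slc2a4 (0.030) and Gys1 (0.033). Control 490 held the lowest value of 11 of the 32 genes and the highest of 5, whereas knockout 501 held the highest of 8 and the lowest of 3. No library was shifted as a whole, with median deviations from the gene means between -0.017 and 0.012 on the log2 scale. Without control 490 the groups did not overlap in 8 of the 32 genes, but with 2 libraries against 3 the same held for 19.7% of all features.

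Balance between isoforms is a usual readout of the fetal or adult state of heart metabolism. It was tested as 12 log2 ratios within libraries, where scaling cancels, each by a 2-sided exact permutation test, whose smallest possible p with 3 libraries per group is 0.1. Read counts were not divided by transcript length, so a ratio compares libraries and does not show which isoform is more abundant. Groups overlapped in all 12 ratios, and every p was 0.9 after Benjamini-Hochberg adjustment over the 12.

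The ratio of Slc2a4 to Slc2a1 was 4.70 ± 0.060 in control and 4.66 ± 0.22 in the knockouts (SD, n = 3, exact permutation p = 0.8). The ratio of Hk2 to Hk1 was 2.3 ± 0.029 and 2.32 ± 0.061 (exact permutation p = 0.6, n = 3 per group). The ratio of Ldhb to Ldha was 0.85 ± 0.099 and 0.89 ± 0.060 (exact permutation p = 0.7, n = 3 per group), with control 490 lowest at 0.74. These pairs thus differed by less than the spread between libraries. Group differences of the other pairs ran from -0.32 for Slc16a1 to Slc16a3 (exact permutation p = 0.2) through -0.16 for Pfkfb2 to Pfkfb3 (0.6) and -0.050 for Eno3 to Eno1 (0.8) to 0.067 for Pfkm to Pfkp (0.7). The ratio of Pygm to Pygb was the steadiest, between -0.056 and 0.018 in all 6 libraries, and that of Gys1 to Pygm, synthesis against breakdown, differed by -0.023 (exact permutation p = 0.9).

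**Figure D4:**
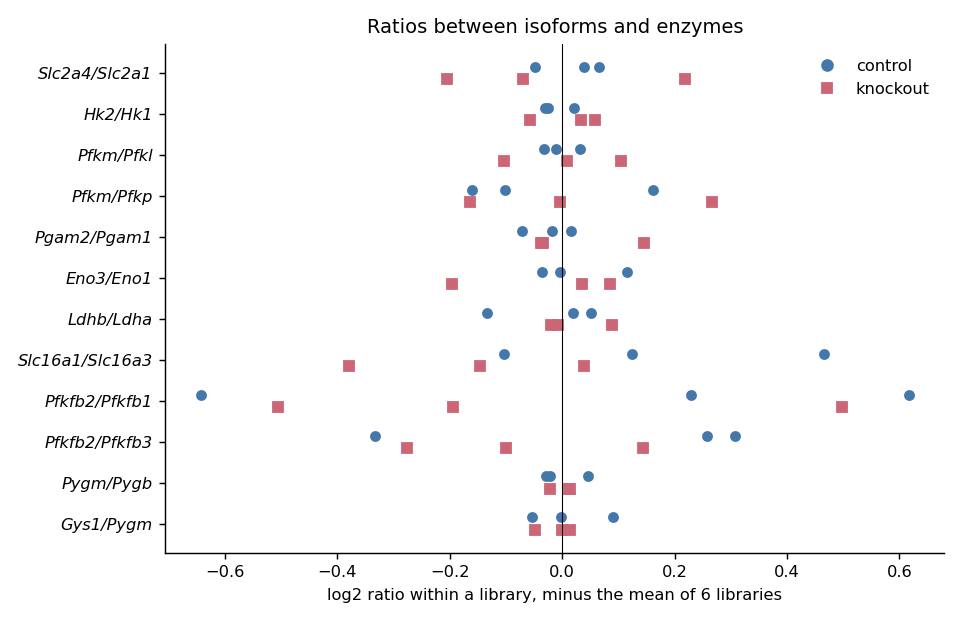
Log2 ratio of the counts of 2 genes within each library, minus the mean over the 6 libraries (horizontal axis), for control (circles) and knockout (squares). Groups overlap in every ratio, and the widest spread is that of Pfkfb2 to Pfkfb1.

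Several glycolytic genes have copies elsewhere in the genome that share their sequence, and these took many reads. By symbol, 20 such copies were found for 7 of the 32 genes, chosen after the data were seen. Copies under other names were not searched for, and no source used here tells how reads shared by near-identical genes were assigned, so counts of these 7 genes are uncertain. Aldoart1 and Aldoart2, retrogenes of Aldoa known for expression in testis, held on average 9235 and 2619 counts. With Aldoa-ps3 and Aldoa-ps4 they made up 43.4% to 45.0% of all counts on Aldoa and its named copies. For Pgk1 the copies exceeded the gene itself, with 75.0% to 76.7% of the counts, nearly all on the pseudogene Pgk1-rs7 (2197 on average). Eno1b held 55.4% to 60.0% of the Eno1 family, Pgam1-ps1 and Pgam1-ps2 together 43.6% to 49.2% of the Pgam1 family, the 2 Gapdh pseudogenes 26.5% to 29.1%, the 6 Tpi1 copies 23.3% to 26.5% and the 2 Ldha pseudogenes 12.2% to 14.9%.

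Adding the named copies to their gene changed no call. The log2 fold changes of the sums were 0.054 for Aldoa, 0.050 for Tpi1, 0.069 for Gapdh, 0.018 for Pgk1 and 0.029 for Pgam1, with limma unadjusted p from 0.249 to 0.704. Eno1 turned from 0.036 to -0.042 and Ldha from 0.0016 to -0.024. The direction of these genes therefore cannot be read from either count, while all 7 sums had 95% intervals between -0.20 and 0.20.

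**Figure D5:**
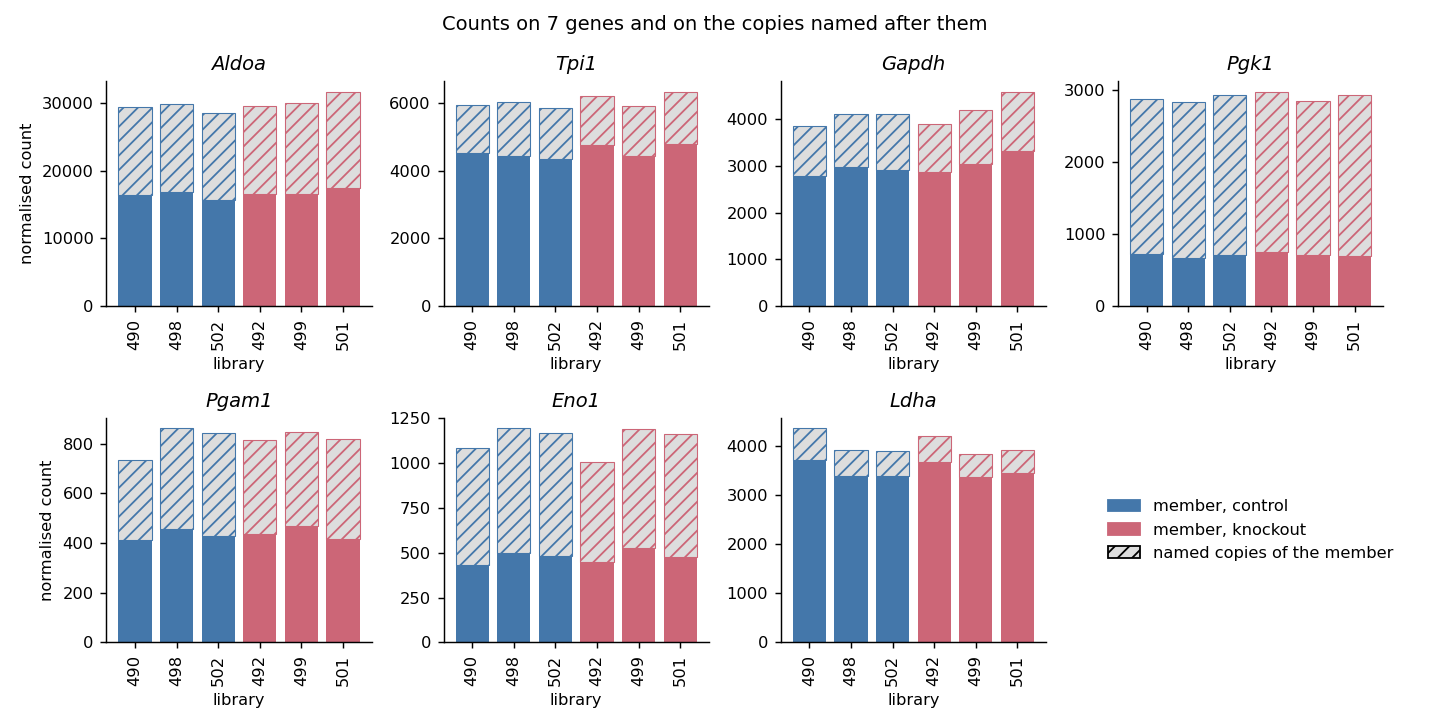
Normalised counts (vertical axes, from 0) on 7 genes (solid bars) and on the copies named after them (hatched) in each library, control in blue and knockout in red. Copies hold most of the Pgk1 and Eno1 counts in every library.

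Other genes of sugar use were read from lists chosen by function. Among the 20 tested of 24 transporters and enzymes of sugar entry and glycolysis outside the 32, 0 were called by limma, 0 were at an unadjusted p under 0.05 and the median log2 fold change was 0.004. The smallest p-values were those of Bsg, of Ldhd (-0.11, without overlap), a mitochondrial lactate dehydrogenase for the D form, of Slc2a8 (-0.17) and of Slc16a7 (0.16). Among the 23 tested of 25 other glycogen genes 0 were called and 1 was at an unadjusted p under 0.05, Ppp1cb, a catalytic subunit of protein phosphatase, with 4224, 4155 and 4180 counts in the controls and 4167, 3783 and 3668 in the knockouts (log2 fold change -0.11, limma unadjusted p = 0.0488). Ppp1r3b (-0.12), Phkb (-0.08) and Ppp1r3d (0.11) followed. The pentose phosphate, hexosamine, polyol and shuttle enzymes had 0 of 20 called and 0 at an unadjusted p under 0.05, with Got1 at -0.10, Rpe at -0.15, Rpia at -0.20 and Pgd at 0.16.

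Of the 35 tested of 36 regulators of glucose uptake and glycolysis 0 were called, with 1 higher and 1 lower at an unadjusted p under 0.05. Pdk1, a kinase that inactivates pyruvate dehydrogenase, held 3411, 3420 and 3341 counts in the controls and 2951, 2832 and 2827 in the knockouts, without overlap (log2 fold change -0.24, limma adjusted p = 0.166). Tbc1d4, which controls the release of GLUT4 to the cell surface, held 2204, 2079 and 2043 counts in the controls and 2417, 2235 and 2297 in the knockouts (0.14, limma adjusted p = 1.00), without overlap. Pdk3 (0.68, at most 24.8 counts) and Mlxipl (-0.16), a glucose-sensing transcription factor, followed. Where glycolysis meets mitochondria, Pdha1 was the only one of 10 genes of pyruvate entry to be called. It encodes the catalytic subunit of pyruvate dehydrogenase and held 13266, 13218 and 13189 counts in control against 10841, 10375 and 10397 in the knockouts (log2 fold change -0.33, limma adjusted p = 0.0126). Among the 32 genes of glycolysis, lactate and glycogen, the lowest log2 fold change was the -0.23 of Phkg1.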

How the data were processed

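The 6 total RNA libraries of heart, 3 per group, were analysed, and libraries of RNA ends from heart mitochondria were not used here. The members and gene lists were chosen with earlier results of these data known. The authors deposited signal per gene as normalised counts, 1 column per library, and the submitters' processing notes name DESeq2 1.22.2, R 3.5.2, featureCounts, Bowtie2 2.3.4.1 and bedtools, with builds mm10 and GRCm38, without their roles. No source used here gives the strand setting, so antisense or overlapping genes may share reads. A DESeq2 table, also deposited, holds log2 fold changes, a test score and a p-value per gene, all used as given.

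Ensembl identifiers without version joined to symbols for 54686 of 54715 features, and gene positions are from RefSeq (GRCm38). Each value divided by the worth of 1 read gave a whole number, within 0.01, for 100% of 156689 nonzero values. Features averaging 10 or more (18250) were tested as log2(value + 1), which understates changes of low genes, by limma 3.58.1 with a trended prior in R 4.3.3, 2-sided, fitting genotype alone, with p-values adjusted after Benjamini-Hochberg and a threshold of 0.05. The fit was tested on simulated data. Alternatives were other pseudocounts, filters and scalings, limma with robust moderation or an untrended prior, edgeR 4.0.16, DESeq2 1.42.0, the authors' deposited table and leaving out each library. Values in every library are given for members at an unadjusted p under 0.05, without overlap or with the most counts in a role, and others as they bear on these. From each other list the called genes or the 4 of smallest p are named.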

Additional observations from a re-analysis of the deposited data

How the results depend on the processing

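No paired analysis was possible because the columns carry library numbers and not the replicate numbers of the labels. The count of called members was 0 in limma as reported and in all 19 alternatives, the smallest adjusted p being 0.376. At an unadjusted p under 0.05 there were 2 members, against 3 (Pkm, Slc16a1 and Phkg1) under equal totals, 1 by edgeR, 1 by DESeq2, 1 in the authors' deposited table, 1 (Tpi1) under equal totals without mitochondrial features and 0 in limma without a trend. Leaving out a library gave 0 to 2. The single member without overlap became 7 under equal totals (15.1% of all features), 3 under equal totals without mitochondrial features (9.72%) and 2 to 8 when a library was left out (17.6% to 21.4%). The median member difference of 0.024 was -0.046 under equal totals and 0.051 under equal totals without mitochondrial features. The equal-total scalings differ only in whether the totals hold mitochondrial features. Those took 69.4% to 70.0% of reads in control and 71.5% to 71.9% in the knockouts, without overlap. Neither the cause of that difference in share nor that of the other changes was tested.

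Of the 32 members, 11 kept their sign in every alternative and 21 did not. Under equal totals Slc2a1 was -0.055, Gpi1 -0.043, Aldoa -0.025, Pgk1 -0.029, Pgam1 -0.048, Eno1 -0.034, Ldha -0.068, Ldhb -0.027, Pfkfb2 -0.043, Gys1 -0.068, Pygm -0.045, Pygb -0.048 and Phka1 -0.024. Under equal totals without mitochondrial features Slc2a4 was 0.0059, Pfkm 0.019, Pfkl 0.012 and Eno3 0.013. With named copies added, an alternative chosen after seeing the data, Eno1 was -0.042 and Ldha -0.024. Fits without 1 library ranged from -0.064 to 0.11 for Slc2a1, -0.096 to 0.0086 for Hk2, -0.0057 to 0.066 for Gpi1, -0.033 to 0.013 for Pfkm, -0.058 to 0.044 for Pfkl, -0.16 to 0.022 for Pfkp, -0.021 to 0.061 for Pgam1, -0.028 to 0.090 for Eno1, -0.036 to 0.013 for Eno3, -0.034 to 0.044 for Ldha, -0.079 to 0.0015 for Slc16a1, -0.13 to 0.16 for Pfkfb2, -0.021 to 0.026 for Gys1, -0.015 to 0.056 for Pygm, -0.0087 to 0.066 for Pygb and -0.080 to 0.0092 for Gyg. The 12 isoform ratios, recomputed with a pseudocount of 10 and without each library, moved by less than their spread, which leaves room for changes of sign: the Pfkfb2 to Pfkfb1 difference was -0.49 without control 490 and 0.14 without control 502. Depth limits Slc16a3 most, at 17.9 to 33.1 counts.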

Other observations

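Ldha-ps2, a pseudogene of Ldha with 515 counts on average, was lower in knockout hearts without overlap (log2 fold change -0.20, limma unadjusted p = 0.0452), while Ldha itself was at 0.0016. Of the 12 named copies tested, it was the 1 at an unadjusted p under 0.05, beside 3.70% of all features. Groups did not overlap in 2 of the 12, beside 9.51% of all features. The other, Aldoa-ps4, was higher in knockout hearts (log2 fold change 0.07). The named Ldha pseudogenes made up 14.9%, 13.3% and 13.3% of the counts on Ldha and these copies in the controls (490, 498, 502), against 12.5%, 12.2% and 12.2% in the knockouts (492, 499, 501). The groups did not overlap in this share, and the exact permutation test, 2-sided, gave p = 0.1 over 3 libraries against 3, the smallest it can give, 1 of 7 such shares computed. This share was singled out after its values were seen.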
